A study of Mus musculus with 6 samples.

Results

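Toll-like receptors and their signalling partners were followed across 6 whole-genome expression arrays of mouse colon. The set had 10 genes chosen by name: the receptors Tlr1, Tlr2, Tlr3, Tlr4, Tlr5, Tlr6, Tlr7 and Tlr9, the co-receptor Cd14 and the adaptor Myd88. They are 10 of the 23458 genes that could be named on the array, and they carried 16 of its 56605 probes. The comparison was between 3 control mice and 3 mice with a knockout of Islr, a secreted leucine-rich repeat protein of stromal cells. All 6 were male, and per the sample source all had received 3.5% dextran sulfate sodium (DSS), which injures the colonic epithelium, in drinking water for 5 days and had recovered for 1 day. The treatment field, in contrast, states none. The labels give no age or strain and do not say how the knockout was made or in which cells. The design text calls the colon samples flow separated without naming any cell selected.

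Toll-like receptors are single-pass membrane proteins that bind conserved molecules of microbes through leucine-rich repeats and signal through a cytoplasmic TIR domain. Tlr1, Tlr2, Tlr4, Tlr5 and Tlr6 act at the cell surface and sense lipopeptides, lipopolysaccharide and flagellin, while Tlr3, Tlr7 and Tlr9 act in endosomes and sense nucleic acids. Most of them pass the signal through Myd88 to NF-kB; Tlr3 uses the adaptor Ticam1 instead, and Tlr4 uses both. In the colon these receptors are found on macrophages, dendritic cells and B cells, and some of them on epithelial and stromal cells, where they take part in the response to bacteria that reach the tissue after injury.

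Each value below is the log2 signal of a spot minus the log2 of that array's 75th percentile, so 0 is the 75th percentile of the array. Levels of different probes are not set against each other, because probes differ in how strongly they bind. Before scaling, the 75th percentile was 6353 to 7110 intensity units on control arrays and 4910 to 5820 on knockout arrays. Between 69.4% and 75.4% of the spots of an array were well above background, and 3.26% to 15.99% were marked as outliers by the scanner software, with the highest shares on control replicate 1 and knockout replicate 1. Islr itself was lower by 2.44 on the log2 scale in the knockouts (from 1.23 ± 0.018, SD, n = 2, to -1.21 ± 0.25, SD, n = 3; limma adjusted p = 0.0171), in the direction of the labels. The 8 epithelial, 4 smooth muscle and 4 general leukocyte markers each gave signal well above background on every array. The controls lay in one row of a single slide and the knockouts in the other, so row and genotype cannot be told apart. The labels do not say how the animals were bred or housed, so the p-values cover only the spread between these samples.

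No member passed the test over all probes. Every array gave signal well above background at 14 of the 16 probes, and no array did so at the other 2 (one each of Tlr4 and Tlr7). Of the 14, 13 could be tested and 0 were called at a 5% false discovery rate in limma, where 3.97% of the 35351 tested probes were called. At an unadjusted p under 0.05 there were 5 of 13 (38.5%), 2 of Tlr1, 1 of Tlr3 and 2 of Tlr7, where 26.8% of all tested probes reached that level. The groups did not overlap at 5 of the 9 tested probes with 6 usable values (55.6%), against 34.5% of all such probes. With outlier spots kept they did not overlap at 9 of the 14 bright probes (64.3%), against 34.9% of all probes tested that way. Some of these probes share a gene, so the counts are not those of independent members. At the brightest tested probe of each gene, 4 of 10 members were higher and 6 lower in the knockouts, with a median of -0.096 on the log2 scale, beside 0.014 over all 16448 named genes tested.

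**Figure D1:**
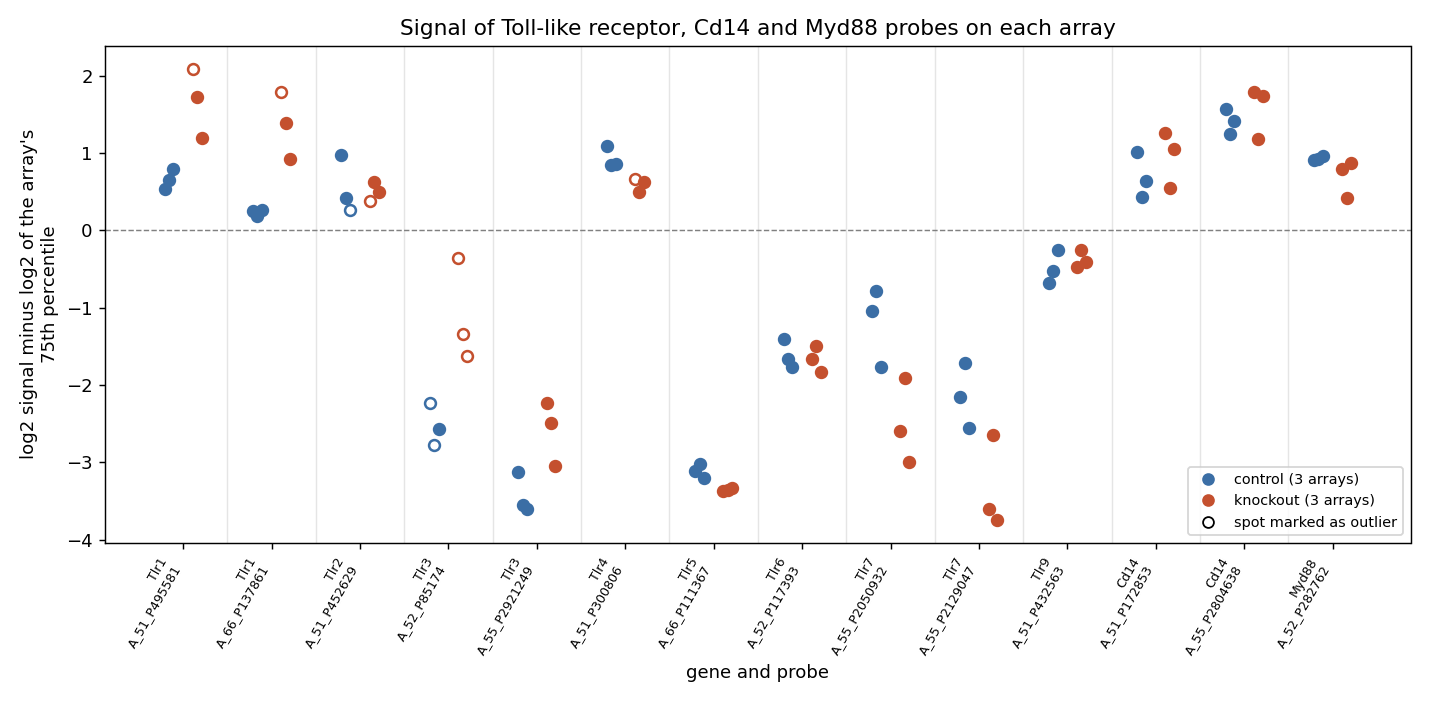
Scaled log2 signal (0: 75th percentile of the array) for the 14 member probes well above background, by gene and probe, with 1 point per array (blue: 3 controls, orange: 3 knockouts; open points: spots marked as outliers). The knockout points lie above the control points at both Tlr1 and both Tlr3 probes and below them at both Tlr7 probes, and the groups overlap at Tlr2, Tlr6, Tlr9 and Cd14.

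Tlr1 and Tlr6 each pair with Tlr2 at the cell surface, Tlr1 for triacylated and Tlr6 for diacylated bacterial lipopeptides. Their genes are neighbours on mouse chromosome 5, with 0 protein-coding genes between them. Tlr1 was higher in every knockout at both of its probes, and Tlr6 was not. At the brighter Tlr1 probe (A_51_P495581) the controls read 0.54, 0.65 and 0.79 and the knockouts 2.09, 1.72 and 1.19. The first of the knockout values came from an outlier spot and did not enter the fit. The lowest knockout was above the highest control with or without that spot. Without it the groups differed by 0.80 log2 units (SE 0.23, 1.74-fold, unadjusted p = 0.0135, limma adjusted p = 0.0972). The other Tlr1 probe (A_66_P137861) read 0.25, 0.18 and 0.26 in controls against 1.79, 1.39 and 0.93 in knockouts. Its control values spread over less than 0.1, and its difference was 0.93 (SE 0.20, 95% interval 0.42 to 1.43, limma adjusted p = 0.0648). With outlier spots kept, this probe differed by 1.14 and was called (limma adjusted p = 0.0478), where 4.85% of all probes were called. Across the 6 arrays the readings of both Tlr1 probes had a Pearson correlation of 0.989.

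Tlr6 (A_52_P117393) read -1.41, -1.66 and -1.77 in controls against -1.67, -1.49 and -1.84 in knockouts. The ranges overlapped almost completely. The difference was -0.053 (SE 0.17, 95% interval -0.47 to 0.36, limma adjusted p = 0.869), and its sign turned under 5 alternative settings. Tlr2, the shared partner, read 0.98, 0.42 and 0.26 in controls against 0.38, 0.62 and 0.50 in knockouts. Control replicate 1 was the highest of the 6, and the other 5 arrays lay close together. With 2 usable spots in each group the difference was -0.14 (SE 0.27, 95% interval -0.84 to 0.57, limma adjusted p = 0.781), and its sign turned with array weights.

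The 250 bases before the annotated start of Tlr1, Tlr6 and Tlr3 are given here because Tlr1 and Tlr3 were both higher in every knockout while Tlr6, the neighbour of Tlr1, was not. They were read 5′ to 3′ on the gene's strand, here the minus strand, from RefSeq for mouse build GRCm38.p6, at chr5:64933559-64933808 (Tlr1), chr5:64959167-64959416 (Tlr6) and chr8:45410381-45410630 (Tlr3). Capitals mark the letters of 3 motifs searched on both strands: GAGGAAGT for PU.1, a factor of myeloid and B cells; GAAANNGAA for most of the interferon-stimulated response element; and GGGANNTTC for most of an NF-kB site.
Tlr1: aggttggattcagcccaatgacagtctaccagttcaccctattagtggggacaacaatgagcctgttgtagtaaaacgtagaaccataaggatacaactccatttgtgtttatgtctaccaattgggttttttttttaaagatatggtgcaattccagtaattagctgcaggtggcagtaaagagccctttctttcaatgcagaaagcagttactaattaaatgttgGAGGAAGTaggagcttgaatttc
Tlr6: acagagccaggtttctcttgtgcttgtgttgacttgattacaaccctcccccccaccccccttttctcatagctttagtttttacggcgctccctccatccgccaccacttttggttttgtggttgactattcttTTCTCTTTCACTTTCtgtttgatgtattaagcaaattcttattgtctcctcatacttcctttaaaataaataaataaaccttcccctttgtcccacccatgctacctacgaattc
Tlr3: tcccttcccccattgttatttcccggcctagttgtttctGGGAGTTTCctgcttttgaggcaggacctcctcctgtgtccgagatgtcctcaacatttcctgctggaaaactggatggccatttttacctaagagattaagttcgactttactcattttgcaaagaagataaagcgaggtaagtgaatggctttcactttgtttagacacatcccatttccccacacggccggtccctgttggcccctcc
The PU.1 letters began 23 bases before the Tlr1 start. In the Tlr6 window 2 overlapping matches to the interferon-stimulated response element, both on the opposite strand, began 115 and 109 bases before the start. The NF-kB letters began 211 bases before the Tlr3 start. Of 32851 such windows of 250 bases, 2.44% held the PU.1 letters, 7.13% those of the interferon-stimulated response element and 3.23% the NF-kB letters. Tlr1 and Tlr6 each have a second annotated start, and those windows held none of the 3 motifs. Of the 9 windows scanned for 7 of the 10 members, 5 held a match. The NF-kB letters also began 31 bases before the Tlr2 start. Those of the interferon-stimulated response element began 40 bases before the Myd88 start. Cd14 was left out of the scan, and Tlr4 and Tlr7 had no window. The share of all windows holding any of the 3 motifs was not counted. The motifs were chosen after the values were seen. A match of letters is a description and not a measured site.

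Among the surface receptors for lipopolysaccharide and flagellin the differences were small. Tlr4, the lipopolysaccharide receptor, read 1.09, 0.84 and 0.86 in controls against 0.66, 0.50 and 0.62 in knockouts at its bright probe (A_51_P300806). Every knockout lay below every control. The difference was -0.37 (SE 0.18, 95% interval -0.82 to 0.074, limma adjusted p = 0.251), with the outlier spot of knockout replicate 1 left out. Cd14, which hands lipopolysaccharide to the Tlr4 complex, read 1.57, 1.24 and 1.41 in controls against 1.79, 1.18 and 1.74 in knockouts at its brighter probe (A_55_P2804638). Knockout replicate 2 was the lowest of the 6 arrays and the other knockouts the highest. The difference was 0.16 (SE 0.21, 95% interval -0.35 to 0.67, limma adjusted p = 0.662). The other Cd14 probe (A_51_P172853) followed it across arrays (Pearson correlation 0.961) and differed by 0.26 (SE 0.25, adjusted p = 0.542). Tlr5, the flagellin receptor, read -3.11, -3.03 and -3.20 in controls against -3.37, -3.35 and -3.33 in knockouts. The knockouts agreed within 0.1 and all lay below the controls. The difference was -0.24 (SE 0.14, 95% interval -0.57 to 0.092, limma adjusted p = 0.316).

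The endosomal receptors differed in both directions, and Tlr7 had the largest difference of the 13 tested member probes. Tlr3, which binds double-stranded RNA, read -3.13, -3.56 and -3.60 in controls against -2.24, -2.49 and -3.04 in knockouts at its tested probe (A_55_P2921249). The lowest knockout was above the highest control by less than 0.1. The difference was 0.84 (SE 0.25, 95% interval 0.23 to 1.45, 1.79-fold, unadjusted p = 0.0141, limma adjusted p = 0.0988). The other Tlr3 probe (A_52_P85174) was an outlier spot on 5 of 6 arrays and could not be tested. With those spots kept it read -2.24, -2.78 and -2.57 in controls against -0.36, -1.34 and -1.62 in knockouts, again without overlap, and differed by 1.42 (limma adjusted p = 0.0633).

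Tlr7, which binds single-stranded RNA, was lower in every knockout. At its brighter probe (A_55_P2050932) the controls read -1.05, -0.79 and -1.77 and the knockouts -2.59, -1.91 and -2.99. The gap between the lowest control and the highest knockout was under 0.2, less than the SD of 0.51 in controls against 0.55 in knockouts. The difference was -1.30 (SE 0.36, 95% interval -2.16 to -0.44, 2.46-fold lower, unadjusted p = 0.00937, limma adjusted p = 0.0844). A second bright probe (A_55_P2129047) read -2.16, -1.72 and -2.56 in controls against -3.60, -2.64 and -3.75 in knockouts. Its difference was -1.18 (SE 0.35, limma adjusted p = 0.0961), and it followed the first across arrays (Pearson correlation 0.985). Tlr9, which binds unmethylated CpG DNA, read -0.68, -0.53 and -0.25 in controls against -0.48, -0.25 and -0.41 in knockouts. The groups overlapped, with a difference of 0.11 (SE 0.17, 95% interval -0.30 to 0.52, limma adjusted p = 0.719).

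Myd88, the adaptor of all these receptors except Tlr3, read 0.91, 0.92 and 0.96 in controls against 0.79, 0.42 and 0.87 in knockouts. The controls agreed within 0.1 and all lay above the knockouts, and knockout replicate 2 lay apart from the other knockouts. The difference was -0.24 (SE 0.17, 95% interval -0.64 to 0.17, limma adjusted p = 0.403), and -0.10 without knockout replicate 2.

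**Figure D2:**
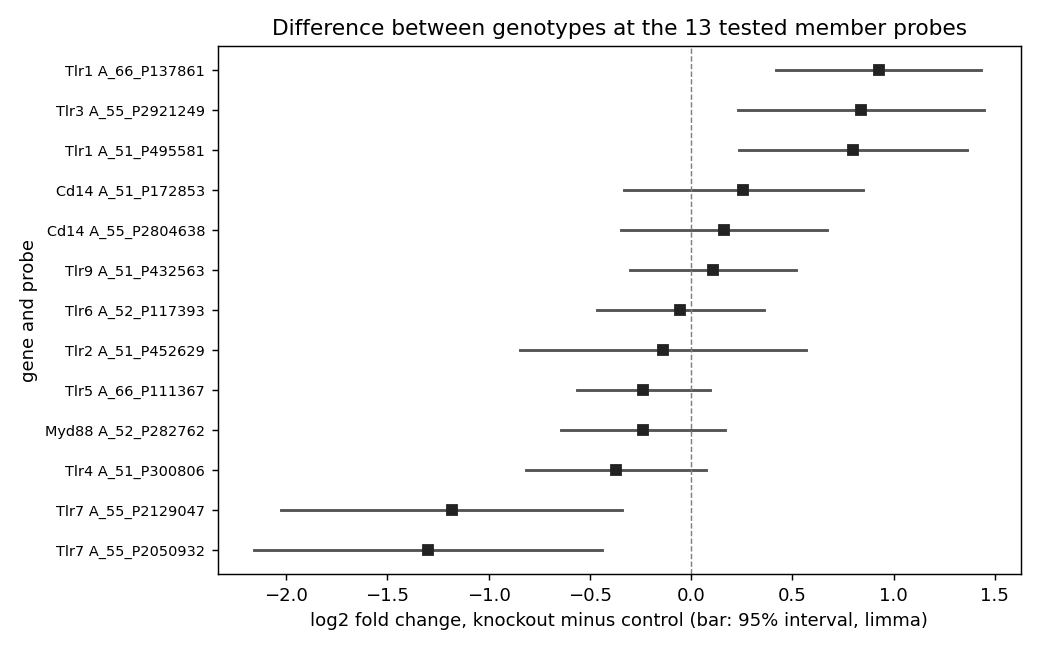
Log2 fold change, knockout minus control, at the 13 tested member probes (squares) with the 95% interval of limma (bars). The intervals of both Tlr1 probes and of the Tlr3 probe lie above 0 and those of both Tlr7 probes below it; these intervals are not adjusted for the number of probes, and no probe had an adjusted p under 0.05.

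The call of these members depended on how arrays were weighted. With array weights, 5 of the 13 probes were called, the same 5 that had an unadjusted p under 0.05, where 26.3% of all probes were called. With weights Tlr7 differed by -1.53 (limma adjusted p = 0.0257) and -1.39 (0.0296), Tlr3 by 0.79 (0.0294) and Tlr1 by 0.74 (0.0362) and 0.91 (0.0166). No member probe that could be fitted was called when any single array was left out.

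Differences between members on the same array do not depend on the scaling between arrays, and 3 pairs were compared after their values had been seen, with outlier spots kept. The log2 difference of Tlr1 (A_51_P495581) minus Tlr6 was 1.95, 2.30 and 2.56 in controls against 3.76, 3.22 and 3.03 in knockouts. It was larger in every knockout, by 1.07 with this probe and by 1.19 with the other Tlr1 probe. Tlr7 (A_55_P2050932) minus Tlr9 was -0.37, -0.26 and -1.52 in controls against -2.12, -1.66 and -2.59 in knockouts. It was lower in every knockout, by a mean of -1.41, although control replicate 3 came within 0.2 of knockout replicate 2. With the second Tlr7 probe the mean shift was -1.29. Tlr4 minus Cd14 (A_55_P2804638) was -0.49, -0.40 and -0.55 in controls against -1.13, -0.69 and -1.12 in knockouts, a shift of -0.50. With the other Cd14 probe the shift was -0.59. For each of these 6 probe pairs the exact permutation test of 3 against 3 (two-sided) gave p = 0.1, the smallest it can give, so it cannot pass a threshold of 0.05.

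**Figure D3:**
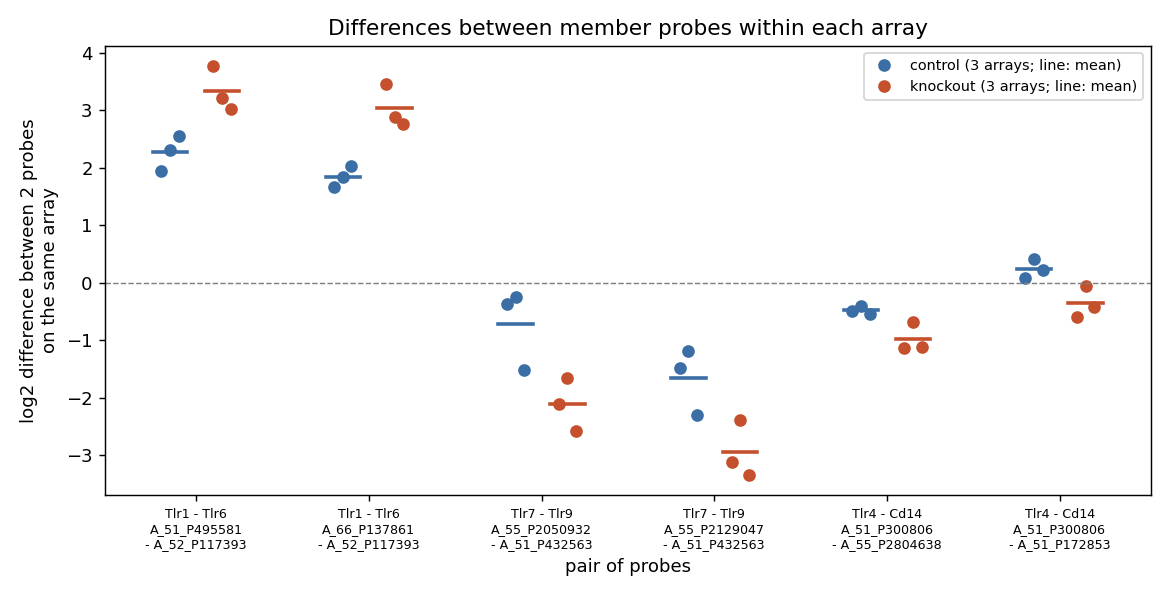
Log2 difference between 2 probes on the same array for 6 probe pairs of Tlr1 and Tlr6, Tlr7 and Tlr9, and Tlr4 and Cd14 (1 point per array, 3 controls in blue and 3 knockouts in orange; lines: group means). The groups are separate for all 6 pairs, upwards for Tlr1 minus Tlr6 and downwards for the others, with gaps under 0.2 at the 4 probe pairs of Tlr7 minus Tlr9 and of Tlr4 minus Cd14.

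Other genes of the pathway were taken by role from a list of 63 genes, of which 56 were tested. Of these 56 genes, 2 were called higher and 5 lower, where 1.81% and 3.20% of all named genes tested were called higher and lower. Their median was -0.067. Among 11 further receptors and accessory proteins 0 were called higher and 1 lower. Tlr8, an endosomal receptor of RNA whose gene is the neighbour of Tlr7 on the X chromosome, fell. Its bright probe (A_66_P131283) read -1.40, -2.02 and -2.57 in controls against -4.55, -3.84 and -3.92 in knockouts. All knockouts lay more than 1 below the lowest control. The difference was -2.11 (SE 0.34, limma adjusted p = 0.0354), and the call was lost when 1 of 4 arrays was left out, namely control 2 (adjusted p = 0.0956), control 3 (0.0598), knockout 1 (0.0770) and knockout 3 (0.0831). It was also lost without a filter on dim probes (0.0554). Tlr13, an endosomal receptor of bacterial ribosomal RNA, differed by -0.90 (adjusted p = 0.0933). Cd180, a receptor-like protein of B cells, differed by 0.49 (0.119) at its bright probe (A_66_P117296). A dim Cd180 probe (A_52_P258617) that was not tested went the other way, by -1.44, with overlap between the groups. Unc93b1, which carries the endosomal receptors out of the endoplasmic reticulum, differed by -0.094 (0.830), and Ly96, the lipopolysaccharide-binding partner of Tlr4, by 0.28 (0.416) at its bright probe (A_55_P2506380) but by -0.89 (0.208) at the other (A_66_P137323). The highest of this list was Tlr11, at 0.51 (0.185).

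Of the 15 tested adaptors and kinases 0 were called, at an unadjusted p under 0.05 there were 2, and their median was 0.057. They ranged from -0.41 for Traf3 (adjusted p = 0.177) to 0.59 for Ticam1 (0.141), the adaptor of Tlr3. Ticam1 read -1.80, -2.43 and -2.08 in controls against -1.26, -1.63 and -1.64 in knockouts. Irak4 and Tbk1 had too few usable spots, and Ticam2 was not well above background on any array.

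Of 8 transcription factors 1 was called higher and 0 lower. Irf7, which drives type I interferon genes downstream of Tlr7 and Tlr9, rose at one probe (A_51_P421876), by 1.97 (SE 0.29, limma adjusted p = 0.0455, 2 usable spots in each group). That call was lost with outlier spots kept (1.80, adjusted p = 0.0534), with the value table (0.0511), without a filter on dim probes (0.0717) and without knockout replicate 1 (0.0690). Its brighter probe (A_55_P2744251) read 2.52, 1.89 and 2.28 in controls against 3.26, 2.84 and 2.81 in knockouts and differed by 0.74 (adjusted p = 0.0977). Both probes had every knockout above every control. The lowest of the list was Irf5, at -0.59 (adjusted p = 0.315), and Rela, the NF-kB subunit that carries most of the signal from Myd88, differed by 0.0096 (adjusted p = 0.973) at its bright probe and by -0.63 (0.194) at the other (A_55_P2744639).

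Among 9 inhibitors of the pathway 1 was called higher and 1 lower. Irak3, a kinase-dead relative of the Irak kinases that dampens Toll-like receptor signalling in macrophages, fell at its 3 tested probes. It was called at 2 of them. The brightest (A_52_P386627) read -0.41, -0.70 and -0.999 in controls against -3.34, -2.35 and -2.92 in knockouts. The difference was -2.16 (SE 0.29, limma adjusted p = 0.0273), and -1.78 at the next probe (adjusted p = 0.0446). The call at that next probe (A_66_P112092) was lost without a filter on dim probes (0.0691), with control 1 and knockout 1 left out together (0.0863) and without any single array other than knockout 2 (0.0606 to 0.124). The third probe differed by -2.25 (adjusted p = 0.0739). Sigirr, a membrane protein of epithelium that restrains Toll-like and interleukin-1 receptors, rose from -1.62, -1.81 and -1.57 in controls to -0.41, -0.81 and -0.84 in knockouts. The difference was 0.98 (SE 0.18, limma adjusted p = 0.0430). The Sigirr call was lost when any single array was left out (adjusted p 0.0517 to 0.136). Testing all dim probes as well also ended it (0.0627). That at the brightest Irak3 probe was lost without any of the same 4 arrays as for Tlr8 (0.0771, 0.0654, 0.0529 and 0.0790, in that order). Socs1 differed by 0.67 (adjusted p = 0.0983), and Tnfaip3 and Nfkbia, which shut down NF-kB, by 0.18 (0.625) and -0.089 (0.826).

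Target genes of the pathway had the lowest median, -1.82 over 13 tested genes, with 0 called higher and 3 lower. The chemokines Ccl3 and Ccl4 fell by 2.49 (SE 0.22, limma adjusted p = 0.0156) and by 2.46 (SE 0.20, adjusted p = 0.0105). Lcn2, a protein that keeps iron from bacteria, fell by 1.82 (SE 0.26, adjusted p = 0.0302). Leaving out any of those 4 arrays also ended the call of Lcn2 (adjusted p 0.0567 to 0.0843), and leaving out control replicate 3 or knockout replicate 3 that of Ccl3 (0.0514 and 0.0528). Cxcl2 and Il6 differed by -4.58 (adjusted p = 0.0715) and -4.05 (0.0671), each well above background on 2 of 3 knockout arrays only. Nos2 was the highest, at 1.36 (SE 0.28, adjusted p = 0.0501). The targets Tnf, Ccl5 and Il12b differed by 0.14 (0.846), 0.0092 (0.984) and 0.24 (0.505). Cxcl1, Cxcl10, Ptgs2 and Saa3 could not be tested because of outlier spots. With those spots kept they differed by -2.77, -0.025, -2.66 and -1.26, in that order (limma adjusted p = 0.117, 0.927, 0.110 and 0.151).

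**Figure D4:**
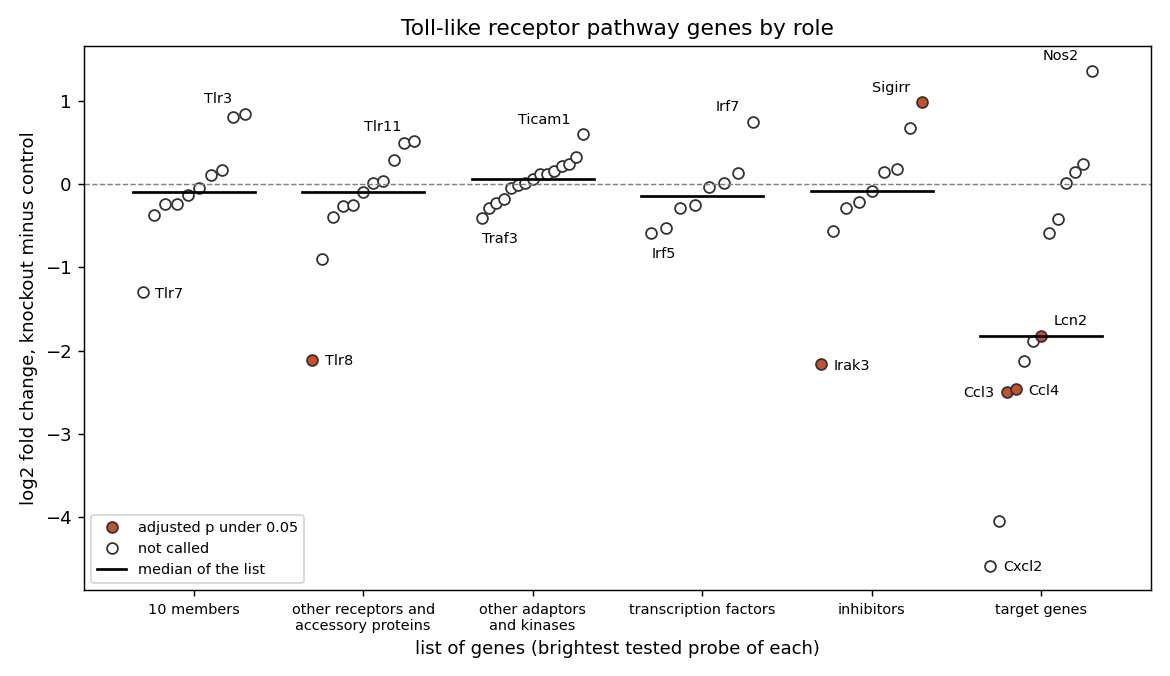
Log2 fold change, knockout minus control, at the brightest tested probe of each gene, for the 10 members and the 5 lists of other pathway genes (filled: adjusted p under 0.05; line: median of the list). Called genes are Tlr8, Irak3, Sigirr, Ccl3, Ccl4 and Lcn2; Irf7 was called at a dimmer probe, which is not drawn.

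Each array measured RNA of many cells, and the cells taken are not named, so fewer cells of a type and less RNA per cell cannot be told apart. Markers of cell types were read in the same samples, and only the neutrophil list of the 5 given here had called genes. Of 8 tested macrophage and monocyte markers 7 were lower in the knockouts and 0 were called, with a median of -0.76. The summed level of that list, in units of the array's 75th percentile, was 28.8 to 36.5 in controls against 24.3 to 29.2 in knockouts. Each such sum adds all listed genes on the array at their brightest probe, with outlier spots kept. It can thus hold untested genes, here Mrc1 and Lyz2, and bright probes weigh most in it. Of 7 tested neutrophil markers 6 fell, with a median of -3.73. The summed level of that list was 24.4 to 26.2 in controls against 17.1 to 19.0 in knockouts. Csf3r went the other way, by 0.17 (limma adjusted p = 0.483). Ly6g had too few usable spots to be tested. With outlier spots kept it was higher in every knockout, by 0.78 (limma adjusted p = 0.106). Csf3r and Ly6g were the brightest of the list in knockouts and made up most of its sum there. That sum therefore understates the fall of the other 6 markers. All 5 B cell markers were lower with 0 called (median -0.55, summed level 4.44 to 14.0 in controls against 3.70 to 11.1 in knockouts). The 3 tested markers listed for plasmacytoid dendritic cells, Bst2, Ccr9 and Tcf4, had a median of -0.16. Siglech could not be tested, with too few usable spots at its bright probe and a dim second probe. The summed level of the list of 4, Siglech included, was 16.1 to 19.9 in controls against 16.3 to 18.0 in knockouts. All 6 tested epithelial markers were higher with 0 called, with a median of 1.002. The summed level of the list of 8, with the untested Epcam and Cdh1, was 16.9 to 54.1 in controls against 64.5 to 85.2 in knockouts. No marker of these 5 lists lacked signal on all arrays. The part of these cell types in the differences of Tlr1, Tlr3, Tlr7, Tlr8, Irak3 and Sigirr was not tested.

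Each member with 6 usable spots at its brightest probe was also set against 80 pathway and marker genes, by Pearson correlation over the 6 arrays. The arrays share their 2 genotypes, so high values are common, and the values are a description only. The closest to Tlr7 was Cyld (0.949), and the closest to Tlr5 was the neutrophil receptor Cxcr2 (0.977). Tlr3 was closest to Tab1 (0.938), Myd88 to Tollip (0.968), Tlr9 to Ikbkb (0.953), Cd14 to Tab3 (0.916) and Tlr6 to the macrophage receptor Csf1r (0.765). Thus the nearest gene of Tlr6 was less close than that of any other member compared.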

How the data were processed

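Colon RNA of 3 control and 3 Islr knockout mice was hybridised to 1 single-colour Agilent array each. The deposited processed signal is an intensity on a linear scale, background-subtracted and detrended inside Feature Extraction (11.5.1.1 per the file headers, 10.7 per the submitters' processing notes) without scaling between arrays. Each file held the red channel alone, although the labels name Cy3. The series' value table holds the same intensity (log2 correlation with the deposited scanner files of at least 0.999999).

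Signals were converted to log2 and each array's 75th percentile subtracted; control and outlier spots were left out. A probe was tested if each of the 3 arrays of either genotype showed it well above background and each genotype had at least 2 usable values, with lmFit and eBayes of limma 3.58.1 (R 4.3.3), two-sided, and Benjamini-Hochberg adjustment over 35351 probes at a 5% false discovery rate. The small number of arrays limits the precision. The procedure was tested on simulated data, with 50 of 35351 probes changed at each size. It recovered 0% of those changed by 0.5 log2 units, 10% at 1, 56% at 2 and 62% at 3. Differences of 1 log2 unit or less were thus mostly missed there. Of its 67 calls 3 were false. The data gave 1403 calls over the same number of probes. The adjustment was thus stricter in the simulation, and its recovery shares need not hold for the data. Probes were named through RefSeq accessions in assembly GRCm38.p6 (59.6% of probes); the probe design uses mm9, so no gene coordinates are given apart from the RefSeq windows.

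Genes named were all members, Islr, called pathway genes and each list's extremes, with nearest profiles among list genes; further pathway genes were picked after their values were seen. Of the marker lists, T cells (0 of 2 tested genes called, median -0.21), fibroblasts (0 of 5, -0.63) and endothelium (0 of 3, -1.36) are given here only, with smooth muscle (0 of 3, 0.36) and all leukocytes (0 of 4, -0.36). The members and lists were chosen with earlier results of these data known. Alternatives were other background corrections, scalings, filters, weights, the value table and leaving out arrays.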

Additional observations from a re-analysis of the deposited data

How the results depend on the processing

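The count of called member probes, 0 of 13, was 5 with array weights and 1 (Tlr1) with normexp and quantile normalization, with outlier spots kept and with the value table; it was 0 under the other 11 alternatives, including each array left out (0 to 0). The value table setting also kept outlier spots, so it largely repeats the setting with outlier spots kept. The median over members (-0.096) was 0.030 with array weights and -0.026 with the value table. It was 0.049 with control 1 and knockout 1 left out together (chosen after seeing the data). With a single array left out it was -0.13 to 0.031. Fewer than 10 members could be fitted in some cases, 9 without control replicate 1 or 2 and 7 without knockout replicate 2 or 3. The 0.031 came without knockout replicate 3. Pathway genes called, 7, became 20 with array weights, 11 with normexp and 4 without a filter on dim probes, and 1 to 6 with an array left out. The pathway median (-0.067) was -0.14 with array weights, -0.14 with the mean over the probes of a gene, -0.11 with normexp, -0.18 with quantile normalization, -0.030 with outlier spots kept, -0.0032 with the value table, -0.027 over probes well above background on all 6 arrays and -0.16 to -0.047 with an array left out. Of all probes 1403 were called (39.1% higher), 9292 with array weights (49.4% higher), 2249 with median centring, 2181 with quantile normalization, 2773 with normexp, 2274 with the value table, 484 without a filter and 40 (without knockout replicate 3) to 2114 (without control replicate 1) with an array left out. Tlr2 turned to 0.085 with array weights, and Tlr6 to 0.016 with quantile normalization, 0.0020 with normexp, 0.047 without control replicate 1, 0.031 without knockout replicate 3 and 0.049 with control 1 and knockout 1 left out; the other 11 member probes kept their sign under all alternatives that could be fitted. The cause of these shifts was not tested. Both Tlr1 probes had too few usable spots to be fitted without knockout replicate 2 or 3, as had the Tlr4 probe; the Tlr2 probe could be fitted only without control replicate 3 or knockout replicate 1. No paired analysis was possible because the labels give the animals no number shared between the groups. Dim spots limit the size of low values, such as the Cxcl2 and Il6 readings in knockouts.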
